A study of Gallus gallus with 4 samples.

Results

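VSX1, SIX3, SIX4 and SIX6 are homeobox genes of the vertebrate retina, taken here by their symbols in the deposited transcript sheet. They are 4 of 18292 named genes and carry 7 of 35665 named transcripts. The libraries were made from polyA RNA of chick retinal explants of embryonic day 5, which had been electroporated with the plasmids ThrbCRM1-GFP and UbiqC-Tdt and kept in culture for about 20 hours. FACS then gave the ThrbCRM1 population, positive for GFP and TDT, and the UbiqC population, positive for TDT alone. Both populations therefore consist of electroporated cells from explants given the same plasmid mixture. They were separated by GFP, which the regulatory element ThrbCRM1 drives. Whether each cell positive for TDT alone also held the ThrbCRM1-GFP plasmid is not shown. Each population has 2 libraries, A and B, whose values are given in that order, and strain and sex are not given in the sources used here.

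VSX1 is a paired-type homeobox gene that serves bipolar cells in the mature mouse retina. SIX3 and SIX6 belong to the SIX-family of homeobox genes, act from the eye field onward and work largely as repressors together with Groucho proteins. Proteins of the SIX-family also bind EYA coactivators and DACH corepressors, and SIX4 is best known from muscle and sensory organ development in mouse.

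Library totals lay between 15673010 and 31659766 estimated counts, with a deep and a shallow library in each population. The reporter followed the sort, since EGFP stood at 9805 and 15147 TPM (a level scaled by transcript length and library total) in the ThrbCRM1 libraries, against 150.3 and 156 TPM in the UbiqC libraries. TdTomato, on which both populations were sorted, stood at 3547 and 14505 TPM in ThrbCRM1 and at 2124 and 5637 TPM in UbiqC. It was thus the higher in library B of each population. Markers of retina were read in every library. RAX, an eye field factor, had levels of 25.7 and 17.2 TPM in the ThrbCRM1 libraries and 221 and 169 TPM in the UbiqC libraries, and PAX6, another, had 360.3 and 270.4 TPM in ThrbCRM1 and 393 and 382 TPM in UbiqC. Each fold change below is a log2 difference, ThrbCRM1 minus UbiqC, ± SE from edgeR's quasi-likelihood test on counts summed by gene, with 2 libraries in each population, and a gene passed where its Benjamini-Hochberg adjusted p over 16771 tested genes was below 0.05.

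The comparison asked how cells with an active ThrbCRM1 element differ from the other electroporated cells. VSX1 was 2.25-fold and SIX3 2.02-fold lower in ThrbCRM1, SIX6 was 1.56-fold higher, and SIX4 did not pass the test. All 4 genes were tested and 3 passed, 2 lower and 1 higher, where 40.8% of all tested genes passed, 20.9% lower and 19.9% higher in ThrbCRM1. The CPM ranges of the populations did not overlap for any of the 4 genes, as was so for 72.0% of tested genes. In bulk RNA of sorted cells, fewer cells that express a gene and less of its RNA per cell cannot be told apart.

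**Figure D1:**
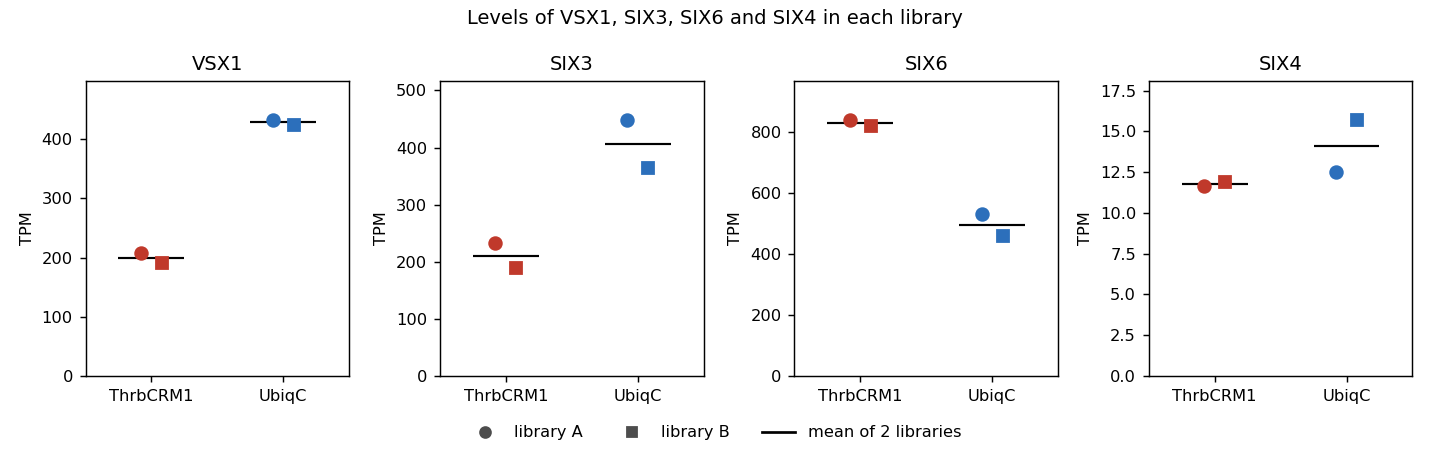
Level in TPM (vertical axes, each starting at 0) of VSX1, SIX3, SIX6 and SIX4 in the ThrbCRM1 and UbiqC libraries, with circles for library A, squares for library B and a bar at the mean of 2 libraries. SIX6 is the only gene of the 4 that lies higher in ThrbCRM1, at 839.9 and 818 TPM against 531 and 459 TPM in UbiqC.

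VSX1 had 208 TPM (A) and 190.2 TPM (B) in ThrbCRM1, against 433 TPM (A) and 425 TPM (B) in UbiqC. The libraries of a population lay within 1.09-fold of each other in ThrbCRM1 and within 1.02-fold in UbiqC, and the populations were far apart. VSX1 fell by 1.17 ± 0.07 on the log2 scale in ThrbCRM1, a 2.25-fold difference (edgeR adjusted p = 7.86e-05). Of all tested genes, 8.39% had a log2 fold change at or below that of VSX1. It still ranked 670th and 729th by TPM among the 16771 tested genes in the ThrbCRM1 libraries, against 280th and 282nd in the UbiqC libraries.

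SIX3, which in mouse represses Wnt genes in the anterior neural plate, had 232 TPM (A) and 188 TPM (B) in ThrbCRM1, against 449 TPM (A) and 365 TPM (B) in UbiqC. Library A was the higher in both populations, by 1.23-fold in each, and the populations did not overlap. SIX3 fell by 1.01 ± 0.14 on the log2 scale, a 2.02-fold difference (edgeR adjusted p = 0.00207), and 10.1% of tested genes had a log2 fold change as low or lower. The ratio of SIX3 to VSX1 in TPM was 1.12 and 0.991 in the ThrbCRM1 libraries, against 1.04 and 0.859 in the UbiqC libraries, so the ranges overlapped (exact two-sided permutation p = 0.667, n = 2 in each population). With 2 against 2 libraries this p cannot go below 0.333, so it could not show a difference.

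SIX6, a gene of progenitor growth in the mouse retina, went the other way. It had 839.9 TPM (A) and 818 TPM (B) in ThrbCRM1, against 531 TPM (A) and 459 TPM (B) in UbiqC. The ThrbCRM1 libraries lay within 1.03-fold of each other and the UbiqC libraries within 1.16-fold. SIX6 rose by 0.65 ± 0.09 on the log2 scale, a 1.56-fold difference (edgeR adjusted p = 0.00251), and 16.1% of tested genes had a log2 fold change as high or higher. SIX6 had the highest TPM of the 4 genes in each library and ranked 153rd and 154th among tested genes in the ThrbCRM1 libraries, against 218th and 260th in the UbiqC libraries.

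SIX3 and SIX6 held most of the SIX-family level described here, and their balance differed between the populations. SIX6 made up 77.1% and 79.9% of the summed TPM of SIX2, SIX3, SIX4 and SIX6 in the ThrbCRM1 libraries, against 53.4% and 54.6% in the UbiqC libraries. SIX3 made up 21.3% and 18.4% in ThrbCRM1, against 45.2% and 43.4% in UbiqC. The sum of these 4 genes was 1089 and 1024 TPM in the ThrbCRM1 libraries, against 993 and 841 TPM in the UbiqC libraries, so the sums lay closer together than the levels of SIX3 or SIX6 did. The ratio of SIX6 to SIX3 was 3.61 and 4.34 in the ThrbCRM1 libraries, against 1.18 and 1.26 in the UbiqC libraries, a 3.25-fold difference without overlap (exact two-sided permutation p = 0.333, the smallest that 2 against 2 libraries allow). The ratio of SIX6 to VSX1 was 4.04 and 4.30 in the ThrbCRM1 libraries, against 1.23 and 1.08 in the UbiqC libraries, again without overlap and with the same exact permutation p.

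**Figure D2:**
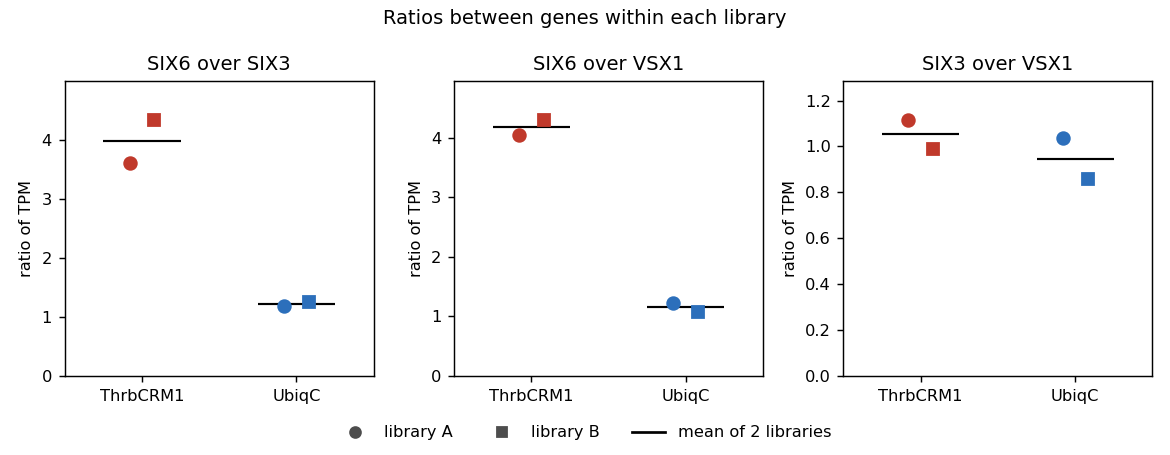
Ratios of TPM within each library (vertical axes, each starting at 0) of SIX6 over SIX3, SIX6 over VSX1 and SIX3 over VSX1 in ThrbCRM1 and UbiqC, with circles for library A, squares for library B and a bar at the mean of 2 libraries. The first and second ratios are higher in both ThrbCRM1 libraries than in both UbiqC libraries, at 3.61 and 4.34 against 1.18 and 1.26 for SIX6 over SIX3, while the third lies between 0.859 and 1.12 in all 4 libraries.

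SIX4 was the lowest of the 4 genes, at 11.7 and 11.9 TPM in the ThrbCRM1 libraries, against 12.5 and 15.7 TPM in the UbiqC libraries. Both ThrbCRM1 libraries lay below both UbiqC libraries, but the gap to UbiqC A was smaller than the 1.26-fold spread between the UbiqC libraries. The log2 fold change was -0.31 ± 0.11 (edgeR adjusted p = 0.0661), so no difference was shown. With 1 library left out the log2 fold change lay between -0.44 (without UbiqC A) and -0.16 (without UbiqC B). Of those fits, SIX4 passed only in the fit without UbiqC A. The name is uncertain. The reference gene table gives SIX5 as the symbol for the accessions of 2 of the 3 transcripts that the deposited sheet calls SIX4, and places that gene near SIX6, where mammals have SIX4. The deposited name is kept here, and no gene is called SIX5 in the deposited sheet.

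By level per length, SIX6 came first in each library and SIX4 last by a wide margin. The ratio of SIX6 to SIX4 was 72.0 and 68.6 in the ThrbCRM1 libraries, against 42.5 and 29.2 in the UbiqC libraries. SIX3 and VSX1 lay between them and changed places, with SIX3 the higher in both A libraries and VSX1 the higher in both B libraries, so their order is not separated from the spread between libraries.

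**Figure D3:**
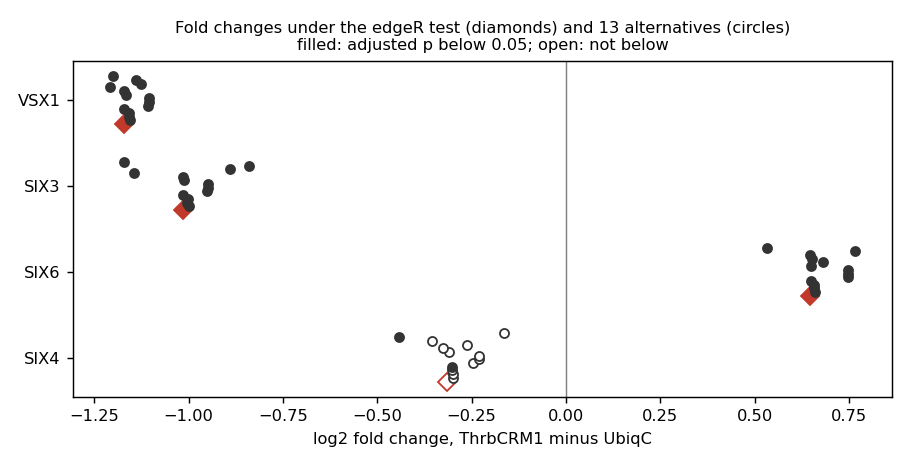
Log2 fold change, ThrbCRM1 minus UbiqC (horizontal axis), of VSX1, SIX3, SIX6 and SIX4 under edgeR's quasi-likelihood test (diamonds) and under 13 alternatives in test, scaling, filter, block or libraries (circles, spread vertically only for legibility). Filled symbols have an adjusted p below 0.05. VSX1 lies between -1.21 and -1.10, SIX3 between -1.17 and -0.84 and SIX6 between 0.53 and 0.77 over the alternatives, all filled, while SIX4 is filled in 2 of 13.

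Under all 13 alternatives VSX1 and SIX3 stayed lower and SIX6 stayed higher, and each of the 3 passed the test each time. The authors' deposited table, which compares the same libraries with sleuth, lists an effect of 0.82 for VSX1 (q = 2.85e-63), 0.71 for SIX3 (q = 1.38e-05) and 0.22 for SIX4 (q = 0.0669), on a natural log scale that runs UbiqC over ThrbCRM1. For SIX6 the authors' deposited table lists -0.47 on that scale (q = 1.26e-06). There, q was below 0.05 for 39.9% of all genes, and SIX4 was again the gene that missed this threshold.

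VSX1 and SIX3 have a single transcript each in the files, SIX6 has 2 and SIX4 has 3. The longer SIX6 transcript NM_204994.1, of 1673 bases, stood at 365 and 349 TPM in the ThrbCRM1 libraries, against 256 and 228 TPM in the UbiqC libraries. The shorter, XM_015287285.1, of 1129 bases, stood at 475 and 469 TPM in the ThrbCRM1 libraries, against 274 and 231 TPM in the UbiqC libraries. Both were higher in both ThrbCRM1 libraries. The shorter transcript made up 56.5% and 57.3% of SIX6 TPM in ThrbCRM1, against 51.7% and 50.3% in UbiqC, so neither transcript dominated. Reads that fit both transcripts are divided by estimation, so the split is less certain than the sum.

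A fit over 32759 transcripts, in which 6.01% passed, gave log2 fold changes of 0.47 ± 0.09 for NM_204994.1 (edgeR adjusted p = 0.0821) and 0.81 ± 0.12 for XM_015287285.1 (edgeR adjusted p = 0.0549). Neither passed, nor did the single SIX3 transcript (-1.04 ± 0.18, edgeR adjusted p = 0.0680), whereas that of VSX1 did (-1.19 ± 0.07, edgeR adjusted p = 0.0184). With 1 transcript each, SIX3 and VSX1 had the same counts in the gene fit, where both passed. That fit passed 40.8% of its genes, so a miss here is not a second result on SIX3. The call of the VSX1 transcript was lost when any 1 library was left out, but no transcript at all passed in those fits. There the log2 fold change of the VSX1 transcript lay between -1.26 and -1.13. SIX4 was carried by XM_003641442.3, of 7411 bases, with 90.3% and 97.3% of its TPM in the ThrbCRM1 libraries and 91.9% and 94.8% in the UbiqC libraries. The nearly as long XM_015287909.1 had 0.696 TPM in ThrbCRM1 A and 0.647 TPM in UbiqC A but at practically 0 in both B libraries, and its log2 fold change of 0.04 had an SE of 3.02.

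**Figure D4:**
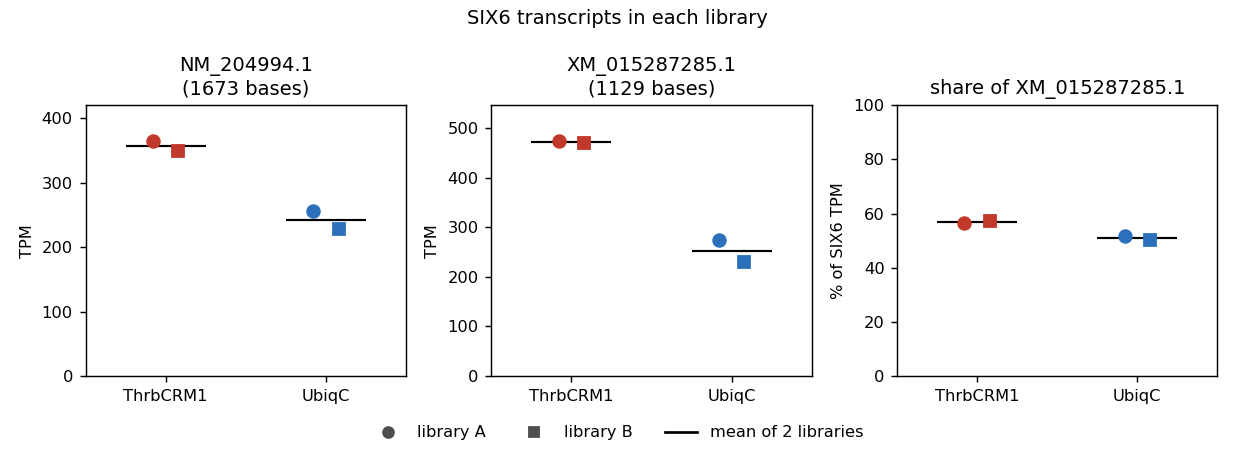
Level in TPM of the SIX6 transcripts NM_204994.1 and XM_015287285.1 (first and second panel, axes starting at 0) and the share of SIX6 TPM carried by XM_015287285.1 in % (the third panel) in ThrbCRM1 and UbiqC, with circles for library A, squares for library B and a bar at the mean of 2 libraries. Both transcripts lie higher in ThrbCRM1, and the share is 56.5% and 57.3% in ThrbCRM1 against 51.7% and 50.3% in UbiqC.

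SIX2, a kidney progenitor gene in mouse that lies next to SIX3 in the reference gene table, stood at 5.07 and 5.58 TPM in the ThrbCRM1 libraries, against 1.09 and 1.33 TPM in the UbiqC libraries. It was scarce, and rose by 2.04 ± 0.33 (edgeR adjusted p = 0.00424) on 8 to 68 counts in a library. SIX2 and SIX3, though neighbours, changed in opposite directions.

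Of the 6 EYA and DACH genes, partners of SIX-family proteins, 2 rose, 1 fell and 3 did not pass. Among all tested genes, 19.9% rose and 20.9% fell. The list's median log2 fold change was -0.20, against -0.01 for all tested genes. EYA1, a coactivator with phosphatase activity, stood at 10.9 and 16.8 TPM in the ThrbCRM1 libraries, against 1.57 and 1.76 TPM in the UbiqC libraries. It rose by 2.97 ± 0.26 (edgeR adjusted p = 0.000336), the largest increase of this list. DACH2, a corepressor, stood at 57.7 and 57.2 TPM in ThrbCRM1, against 41.4 and 43.5 TPM in UbiqC, and rose by 0.35 ± 0.07 (edgeR adjusted p = 0.0103). The DACH2 call was lost without ThrbCRM1 A and without ThrbCRM1 B, at a log2 fold change of 0.36 in each fit. Fewer of all tested genes passed in every fit with 1 library left out, here and below.

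EYA3 stood at 40.7 and 43.5 TPM in the ThrbCRM1 libraries, against 47.9 and 50.8 TPM in UbiqC, and fell by 0.29 ± 0.08 (edgeR adjusted p = 0.0242). Its call was lost when any 1 of the 4 libraries was left out (edgeR adjusted p between 0.0504 and 0.186) and with limma on TPM. EYA4 had 0 counts in ThrbCRM1 A and 22 in ThrbCRM1 B, against 89 in UbiqC A and 138 in UbiqC B, and did not pass (edgeR adjusted p = 0.0635). Its log2 fold change of -3.14 ± 1.09 rests on the library at 0, was -1.81 without ThrbCRM1 A and -10.02 without ThrbCRM1 B, and passed in both of those fits (edgeR adjusted p = 0.0339 and 0.000867). EYA4 also passed with limma on log2(TPM + 1) (limma adjusted p = 0.0205, and 0.0233 without a filter). The authors' deposited table lists a sleuth q of 3.72e-07 for EYA4, with a smaller effect. That effect is 0.99 on its natural log scale, or -1.43 as a log2 difference, ThrbCRM1 minus UbiqC. EYA2 (-0.16 ± 0.14) and DACH1 (-0.24 ± 0.11) did not pass (edgeR adjusted p = 0.433 and 0.130), though DACH1 passed without UbiqC B (0.0117).

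Among 5 tested genes of the Groucho corepressor list, to which geminin, a SIX3-binding inhibitor of DNA replication, was added, 2 rose and 2 fell. Over all tested genes, 19.9% rose and 20.9% fell. AES, a short Groucho relative, stood at 231 and 228 TPM in the ThrbCRM1 libraries, against 132 and 126 TPM in the UbiqC libraries, and rose by 0.77 ± 0.07 (edgeR adjusted p = 0.000435). TLE1 rose by 0.63 ± 0.07, at 57.8 and 59.5 TPM in ThrbCRM1 against 34.9 and 37.7 TPM in UbiqC. TLE4 fell by 0.79 ± 0.13, at 33.7 and 26.1 TPM in ThrbCRM1 against 44.8 and 53.8 TPM in UbiqC. GMNN, which encodes geminin, fell by 0.70 ± 0.09, at 71.3 and 77.4 TPM in ThrbCRM1 against 117 and 114 TPM in UbiqC. TLE3 did not pass, and the list's median was -0.01, the same as for all tested genes.

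Most other eye field and progenitor transcription factors were lower in ThrbCRM1, as VSX1 and SIX3 were. Of 13 tested genes of that list, 9 fell, 2 rose and 2 did not pass, and the list's median log2 fold change was -0.76. Among all tested genes, 20.9% fell and 19.9% rose. NR2E1, an orphan nuclear receptor of progenitors, had the lowest value (-3.97 ± 0.19), at 13.5 and 8.95 TPM in the ThrbCRM1 libraries against 186 and 159.6 TPM in the UbiqC libraries. RAX fell by 3.21 ± 0.21, and HES1, a Notch pathway repressor, fell by 1.58 ± 0.09, at 258 and 217 TPM in ThrbCRM1 against 674 and 686 TPM in UbiqC. PAX2 fell by 2.26 ± 0.13, more than HES1. LHX2 (-0.68 ± 0.07), TBX2 (-0.71 ± 0.07), VAX1 (-0.76 ± 0.16), SOX2 (-1.05 ± 0.09) and TBX3 (-1.36 ± 0.08) fell by less than HES1.

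The 2 that rose, as SIX6 did, were the TALE homeobox genes MEIS2, by 1.22 ± 0.07, and MEIS1, by 0.38 ± 0.10. MEIS2 stood at 219 and 224 TPM in the ThrbCRM1 libraries, against 90.5 and 92.5 TPM in the UbiqC libraries. The MEIS1 call was lost without ThrbCRM1 A, without ThrbCRM1 B and without UbiqC B, in fits where fewer of all tested genes passed as well. With 1 library left out MEIS1 lay between 0.27 and 0.50. PAX6 (-0.32 ± 0.11, edgeR adjusted p = 0.0657) and HMX1 (-0.04 ± 0.10) did not pass, and PAX6 passed without ThrbCRM1 A (0.0309) and with the DESeq2 test (DESeq2 adjusted p = 0.0248).

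**Figure D5:**
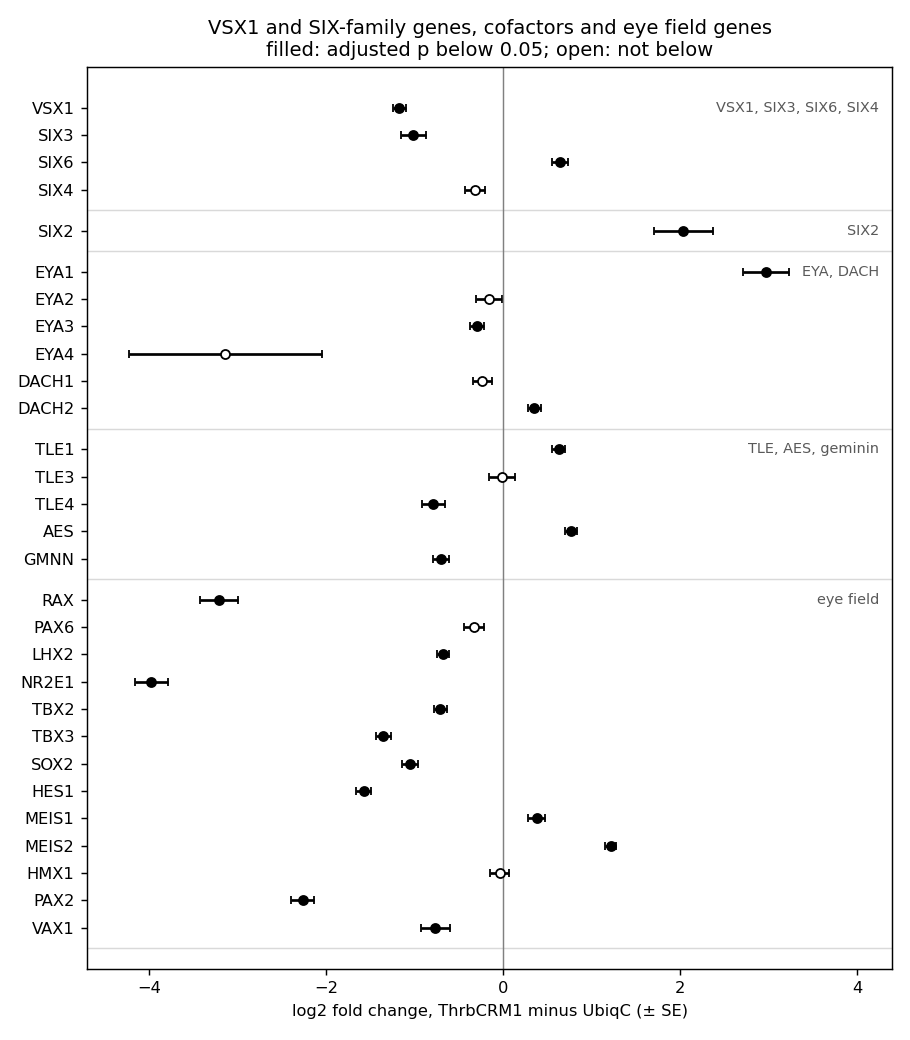
Log2 fold change, ThrbCRM1 minus UbiqC, with its SE (horizontal axis) for VSX1, SIX3, SIX6 and SIX4, SIX2, the EYA and DACH genes, the TLE, AES and geminin genes and the eye field genes, with filled circles for an edgeR adjusted p below 0.05. VSX1 and SIX3 lie left of zero, as do the 9 eye field and progenitor genes of 13 that fell and, with open circles, PAX6 and HMX1, and SIX6 lies right of zero with MEIS1 and MEIS2.

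Since VSX1 serves bipolar cells later on, 14 tested bipolar genes were set beside VSX1. Of these 7 rose, 4 fell and 3 did not pass, with a median log2 fold change of 0.09. Among all tested genes, 19.9% rose and 20.9% fell. LHX4, a LIM homeobox gene of cone bipolar cells in mouse, rose by 4.70 ± 0.16, at 42.5 and 48.3 TPM in the ThrbCRM1 libraries against 1.79 and 1.57 TPM in the UbiqC libraries. LHX4 rose by more than OTX2 (4.33) and by less than every other photoreceptor marker listed below. Which cell type LHX4 marks in these libraries was not tested. PRKCA, a kinase gene of rod bipolar cells, fell by 2.18 ± 0.07, at 12.3 and 12.3 TPM in ThrbCRM1 against 53.4 and 55.6 TPM in UbiqC. GRIK1 rose by 1.34 ± 0.10 and NFIA fell by 2.30 ± 0.21. The others that rose were BHLHE22, BHLHE23, LHX3, GNG13 and SCGN, by less than LHX4, between 0.36 (BHLHE22) and 2.12 (SCGN). LHX3 (0.99 ± 0.31) passed narrowly (edgeR adjusted p = 0.0456) on 16 to 59 counts in a library, and SCGN rested on 10 to 99 counts. The others that fell were ISL1 and PRDM8, and TRPM1, IRX5 and IRX6 did not pass. Fewer genes of this list rose without ThrbCRM1 A, where fewer of all tested genes passed as well. With 1 library left out BHLHE22 lay between 0.25 and 0.48 and LHX3 between 0.85 and 1.13.

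Of 5 tested genes described as repressed by SIX3, SIX6 or VSX proteins in mouse or zebrafish, 1 was higher and 2 were lower. Among all tested genes, 19.9% were higher and 20.9% lower. The list's median log2 fold change was -0.20, against -0.01 for all tested genes. CDKN1B, a cell cycle inhibitor gene that SIX6 represses in mouse, rose by 0.64 ± 0.09, at 219 and 229.5 TPM in the ThrbCRM1 libraries against 145 and 131 TPM in the UbiqC libraries. RSPO2, a Wnt agonist gene, fell by 2.11 ± 0.15, at 5.93 and 7.80 TPM in ThrbCRM1 against 27.1 and 28.6 TPM in UbiqC. MITF, the pigment cell regulator, fell by 1.35 ± 0.11, at 6.04 and 5.24 TPM in ThrbCRM1 against 14.2 and 13.3 TPM in UbiqC. BMP4 (-0.20 ± 0.28) and WNT8B (0.36 ± 0.45) were low and did not pass.

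Markers of photoreceptors moved with the sort. They include THRB, after which the element that drove GFP is named, so its rise of 5.31 may not be independent of the sort. Whether the rises of the other markers, OTX2 among them, are independent of the sort was not tested. All 7 rose, with a median log2 fold change of 6.32, and their summed level was 3975 and 4637 TPM in the ThrbCRM1 libraries, against 91.8 and 98.5 TPM in the UbiqC libraries. RCVRN, the recoverin gene, stood at 906 and 913 TPM in ThrbCRM1 and at 10.1 and 10.0 TPM in UbiqC, and OTX2 and RXRG rose by 4.33 and 6.32. Of 8 ganglion cell markers 1 rose, NEFM by 1.19, and 3 fell, ISL1, RBPMS by 1.19 and RBPMS2 by 1.49. More of them fell without ThrbCRM1 A, though fewer of all tested genes passed in that fit. The list's median log2 fold change was -0.67. The summed level of the 8 was 379.7 and 288 TPM in ThrbCRM1 and 364 and 312 TPM in UbiqC. NEFM stood at 151 and 137 TPM in ThrbCRM1 against 63.4 and 58.0 TPM in UbiqC. Its rise offset the lower levels of other markers in the sum. Among all tested genes, 19.9% rose and 20.9% fell.

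Markers of tissues around the retina were also read, and their counts stand beside 19.9% of all tested genes that rose and 20.9% that fell. Summed over 9 pigment epithelium markers the level was 18.7 and 18.1 TPM in the ThrbCRM1 libraries, against 22.2 and 20.5 TPM in UbiqC. MITF had the highest mean level of them, at 6.04 and 5.24 TPM in ThrbCRM1 against 14.2 and 13.3 TPM in UbiqC. The fall of the sum rested on MITF, and the list's median log2 fold change was 0.35. Of 8 tested markers 2 rose, DCT by 0.95 and TYRP1 by 3.44, while 2 fell, MITF and OCA2. TYRP1 had no count in UbiqC A, was at 7.82 without UbiqC B and no longer passed without ThrbCRM1 A (edgeR adjusted p = 0.0985). OCA2 no longer passed when any 1 library was left out (edgeR adjusted p between 0.0797 and 0.137) or with the DESeq2 test (0.192). Summed over 7 lens and surface ectoderm markers the level was 56.5 and 41.4 TPM in ThrbCRM1, against 23.1 and 21.9 TPM in UbiqC. CRYBA4, a lens crystallin gene, was the most abundant of them and rose by 1.70 ± 0.20. It stood at 49.6 and 34.0 TPM in ThrbCRM1 against 13.8 and 10.9 TPM in UbiqC. The rise of the sum rested on CRYBA4, and the list's median log2 fold change was -0.37. BFSP1 rose by 2.10 ± 0.37, ASL1 and BFSP2 fell by 1.21 and 2.22, and calls of BFSP1 and ASL1 were lost without ThrbCRM1 A (edgeR adjusted p = 0.0604 and 0.0975), ASL1 also without UbiqC B (0.0567) and with the DESeq2 test (0.0735).

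Summed over 6 mesenchyme and muscle markers the level was 13.3 and 14.5 TPM in the ThrbCRM1 libraries, against 7.21 and 8.16 TPM in the UbiqC libraries, where PDGFRA rose by 1.71 and COL1A2 fell, a call lost without ThrbCRM1 B (edgeR adjusted p = 0.0519), and MYOD1 did not pass. PDGFRA was the most abundant of them, at 9.23 and 10.4 TPM in ThrbCRM1 against 2.82 and 2.89 TPM in UbiqC. The rise of the sum rested on PDGFRA, and the list's median log2 fold change was -0.84. TWIST1, TWIST2 and COL1A1 were below 1 TPM in all 4 libraries, as were the pigment markers OCA2 and SLC45A2 and the lens marker MIP. No marker of these lists was at 0 in all 4. The part of these cell types in the values of VSX1, SIX3, SIX4 and SIX6 was not tested.

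The genes whose CPM pattern lay nearest to each gene were found by the Euclidean distance between log2 CPM values centred over the 4 libraries, among 8919 symbol-bearing genes with a mean of at least 10 CPM. Nearest to VSX1 were LIPG, DDT and PXMP4, at distances of 0.04, 0.06 and 0.06. Nearest to SIX3 were OXNAD1, TWISTNB and MAST4, at 0.07, 0.07 and 0.09, and nearest to SIX6 were TMCC2, FAM64A and BBS2, at 0.03, 0.04 and 0.05. ACTN1, EPB41L1 and CEP95 lay nearest to SIX4, at 0.02, 0.03 and 0.03. Such likeness rests on only 4 libraries. Of the 8919 genes compared, 115 lay within 0.2 of VSX1, 33 of SIX3, 207 of SIX6 and 544 of SIX4. The genes named were thus not alone in it.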

How the data were processed

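PolyA RNA of 4 libraries was analysed, with groups and letters from the library titles. The authors made the deposited expected counts per transcript and the TPM per transcript with kallisto, per the submitters' processing notes, which also name sleuth and galGal5. Transcript lengths (other values) stand beside them in the deposited files. In the authors' deposited comparison, each gene has a p-value, a q-value and an effect on a natural log scale. Versions are not given in the sources used here. Transcripts were paired with gene names through the deposited transcript sheet. Symbols that had turned into dates, HES1 and PRDM8 took their names from a RefSeq gene table of the assembly bGalGal1.mat.broiler.GRCg7b, the reference gene table of the text, used for names and neighbours only. Listed symbols with no match, such as TLE2, are not analysed here, and some listed genes are not reported here and were left out of the list counts.

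Expected counts were summed by gene without the reporters and rounded. edgeR 4.0.16 (R 4.3.3) was used with TMM factors between 0.988 and 1.007 and filterByExpr at a minimum count of 10. The SE is the log2 fold change divided by the root of the F statistic. The test was also run on simulated counts with few changed genes and the same spread for all genes. These data differ from that setting, so the run does not bear on the calls here. Alternatives were DESeq2 1.42.0 size factors and its test, no filter, at least 5 CPM in 2 libraries, length offsets, limma 3.58.1 on log2(TPM + 1) with and without a filter at 1 TPM and on log2(TPM + 0.1), the letter as a block, and each library left out. The 4 genes and the 11 lists were chosen with earlier results of these data known. Genes named from a list are all genes of the SIX-family, EYA and DACH lists and otherwise the 3 of smallest edgeR p, and the other genes named were chosen after their values were seen. Nothing in the labels tells whether libraries A and B are separate cultures, and p-values may therefore rest on technical spread alone.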

Additional observations from a re-analysis of the deposited data

How the results depend on the processing

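VSX1, SIX3 and SIX6 kept their direction and passed the test under each of 13 alternatives, with adjusted p-values of at most 0.00551, 0.0224 and 0.0380. SIX4 kept its direction but passed in 2 of 13, with a log2 fold change of -0.30 in the fit with a replicate block (edgeR adjusted p = 0.0128) and between -0.44 and -0.16 with 1 library left out. The genes called numbered 6839, 8376 with the replicate block, and between 3846 and 6189 with 1 library left out (3846 without ThrbCRM1 A and 4546 without ThrbCRM1 B). The letter is not known to pair libraries. Deviations of same-lettered libraries from their group means had a correlation of 0.17 across 16771 genes, and the block changed no call of VSX1, SIX3 or SIX6. With the block PAX6, DACH1 and EYA4 passed (edgeR adjusted p = 0.00811, 0.0479 and 0.0213).

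Transcripts called by edgeR numbered 1970, and 0 with the replicate block or with any 1 library left out (7373 with an unadjusted p below 0.05 under the block, and between 5822 and 7529 with 1 library left out), so no single transcript passed in those fits. There VSX1 transcript NM_204769.1 had a log2 fold change of -1.20 with the block (edgeR adjusted p = 0.0854) and between -1.26 and -1.13 with 1 library left out. XM_015287909.1 of SIX4 ranged between -7.73 and 8.07. Genes that did not pass and changed sign were TLE3 (0.0022 with DESeq2 size factors, 0.0011 with the 5 CPM filter, 0.0399 with limma on log2(TPM + 0.1) and 0.0391 with limma on log2(TPM + 1), and between -0.17 and 0.15 with 1 library left out) and HMX1 (0.0245 and 0.0239 in those limma fits, and between -0.0833 and 0.0196). With 1 library left out, so did WNT8B (-0.15 to 0.96), TYR (-0.0543 to 1.04), RPE65 (-0.17 to 0.64), BEST1 (-0.61 to 0.41) and PITX3 (-0.77 to 0.29). The cause was not tested. A left-out library leaves 1 library in its group, which is assumed to vary like the other group. SIX2 rests on 8 to 68 counts in a library and EYA4 on 0 to 138, and neither is tested with the 5 CPM filter.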
